A study of Mus musculus with 8 samples.

Results

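Methylglyoxal is a reactive by-product of glycolysis that glycates proteins and DNA, and the glyoxalase system is the main route by which cells remove it. Glyoxalase 1, encoded by Glo1, joins methylglyoxal and glutathione into S-D-lactoylglutathione, and glyoxalase 2, encoded by Hagh, splits that product into D-lactate and glutathione. The heart runs a large glycolytic and oxidative flux, so the enzymes of this route, and the aldo-keto reductases that reduce methylglyoxal by a parallel path, are expressed in cardiac tissue. The Glo1 locus is also known from mouse genetics, because a segment that holds Glo1 and its neighbours is duplicated in some inbred strains and single in others, C57BL/6 among the latter.

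The 8 genes described here are Glo1, Hagh, Park7, Akr1b3 and Akr1a1, all tied to methylglyoxal, and Btbd9, Dnah8 and Glp1r, which flank Glo1 on chromosome 17. They are 8 of the 39056 genes listed in the counts. Glo1 was picked because it was higher in HVCN1 null hearts in these same libraries, so its difference between the groups is given as a description with no test. The other enzymes were added by function and the neighbours by position, with results of these data already known. Of the 8 genes, 7 passed the filter on low counts, which left 14796 genes in all, and Glp1r did not.

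The study sequenced poly-A RNA from the hearts of 4 mice without the voltage-gated proton channel HVCN1 (HVCN1-/-, labelled Hv1 null, hearts 1 to 4) and of 4 WT mice (hearts 5 to 8), to ask how the heart's transcriptome differs without the channel. All mice were male and 3 months old, with a C57BL/6 background as the study states it, 1 library per heart, and no treatment other than the knockout in the null group. Whether the animals were littermates and how often the null line was crossed to C57BL/6 are not given in the sources used here. The labels name no batch, and each library is a separate heart.

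Total counts ran from 25851255 to 36396297 per HVCN1 null heart and from 32595114 to 38874640 per WT heart. Hvcn1 itself summed to 16 counts in the HVCN1 null group and to 318 in the WT group (log2 fold change -4.20, standard error 0.38). The 8 cardiomyocyte markers summed to 58709 to 77031 CPM (counts per 1e6 counts of the library, scaled by the TMM method of edgeR) in HVCN1 null hearts and to 62243 to 76942 CPM in WT hearts, and all were detected. Atrial markers varied within each group, with a summed level of 398, 4869, 3861 and 433 CPM in HVCN1 null hearts 1 to 4 and of 3470, 211, 8820 and 193 CPM in WT hearts 5 to 8. Hearts 2, 3, 5 and 7 therefore stood apart from hearts 1, 4, 6 and 8 in atrial RNA, and results are also given within these sets of 4. In whole-heart RNA, fewer cells of a type and less RNA per cell cannot be told apart.

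Glo1 (ENSMUSG00000024026) lies on the minus strand of chromosome 17, 30584936 to 30626871 in GRCm38, with Btbd9 on one side and Dnah8 on the other. Its closest relative in the annotated transcripts is Gm13443 (ENSMUSG00000075391), a processed pseudogene on the plus strand of chromosome 2, 35340409 to 35340963. A processed pseudogene is a copy made from spliced RNA, so it holds the coding sequence without introns. The 555 coding bases of the Glo1 transcript Glo1-202 and the whole of Gm13443 differ at 3 positions, an identity of 99.46%. The stretch around the first of them is shown because only reads that cover such a position can be told apart within the coding sequence. The differing base is in capitals, and positions are counted from 1 at the first base of the start codon. The change at G9A falls in exon 1 of Glo1, at position 30612543 of chromosome 17.
Glo1 around G9A: atggcagaGccacagccggcgtcc
Gm13443 around G9A: atggcagaAccacagccggcgtcc

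On its other flank Glo1 abuts Dnah8, which runs on the plus strand. The annotated spans of the genes overlap by 2518 bases, yet they share 0 exonic bases. From the outermost Glo1 exon to the next Dnah8 exon there are 63 bases (chr17:30626872-30626934 in GRCm38.p6, plus strand, from RefSeq). They are printed because RefSeq places the start of Dnah8, of the 8 genes the one that differed most between the groups, just beyond them. Capitals mark CCGCCC, the reverse complement of GGGCGG.
Between Glo1 and Dnah8: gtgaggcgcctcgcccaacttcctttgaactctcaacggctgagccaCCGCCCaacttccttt
The start of Glo1 that RefSeq uses lies within the gene model, and the 113 bases of its promoter window that carry no annotated exon (chr17:30612797-30612909, minus strand) hold the same motif.
Before Glo1: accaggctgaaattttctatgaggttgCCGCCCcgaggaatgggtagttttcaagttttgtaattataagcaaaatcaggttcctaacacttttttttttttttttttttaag
RefSeq promoter windows, from 250 bases before to 50 bases after a start, were found for Glo1, Hagh, Park7, Akr1a1, Dnah8 and Glp1r. GGGCGG, searched on both strands, was in 35.7% of all 32851 windows and in those of Glo1, Hagh, Park7, Dnah8 and Glp1r. CCAAT was in 37.4% of all windows and in those of Glo1 and Hagh, and TGACNNNGC was in 12.4% and in 1 of the Hagh windows. Such matches are a description of the sequence.

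Glo1 was at 82.0, 85.2, 124 and 98.9 CPM in HVCN1 null hearts 1 to 4 and at 52.9, 60.4, 54.0 and 63.2 CPM in WT hearts 5 to 8. Every HVCN1 null heart was above every WT heart, and null heart 3 was the highest. Over all tested genes the groups did not overlap in 7.14%, and in 3.88% with the null hearts above. The group means were 97.5 ± 19.0 and 57.6 ± 4.98 CPM (SD, n = 4 and 4), a ratio of 1.69, and the log2 fold change was 0.75 (standard error 0.14). With a coefficient of variation of 19.5% against 8.64%, the HVCN1 null hearts were also spread more widely. Among atrium-rich hearts Glo1 was at 85.2 to 124 CPM in HVCN1 null and 52.9 to 54.0 CPM in WT hearts, and among atrium-poor hearts at 82.0 to 98.9 and 60.4 to 63.2 CPM. As the groups did not overlap over all 8 hearts, their order had to be the same in both sets, so this split is no further check.

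**Figure D1:**
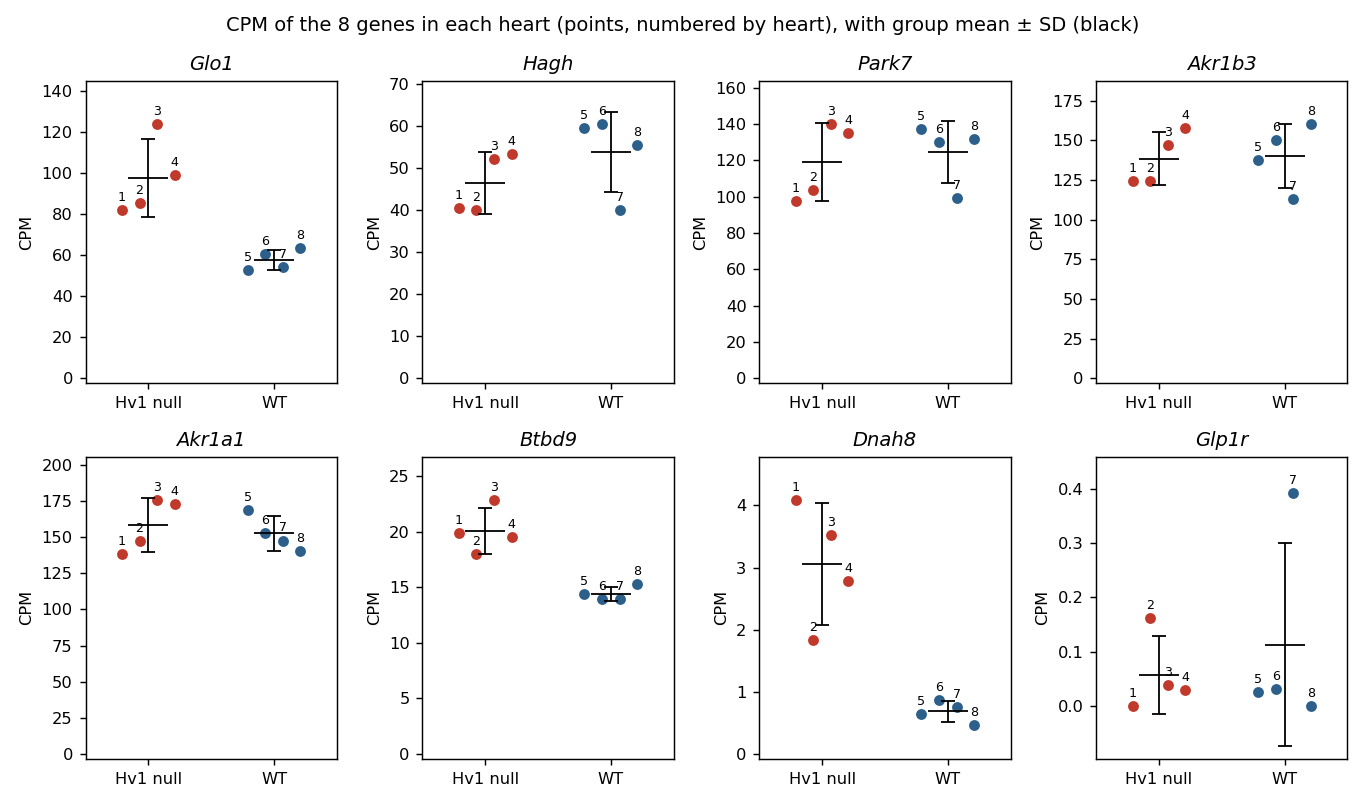
CPM (y axis, linear, 1 panel per gene) of the 8 genes in the 4 Hv1 null hearts (red) and 4 WT hearts (blue), each point 1 heart with its number, and the black marks the group mean ± SD. The groups do not overlap for Glo1, Btbd9 and Dnah8 and overlap for the other 5 genes, and WT heart 7 stands alone for Glp1r at 0.393 CPM.

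Gm13443, found by its sequence and examined after its values were seen, had 42, 34, 50 and 34 counts in HVCN1 null hearts and 10, 5, 5 and 5 counts in WT hearts. The groups did not overlap here either. Its mean level was 1.26 ± 0.45 CPM in HVCN1 null and 0.177 ± 0.053 CPM in WT hearts (SD, n = 4 and 4), a ratio of 7.12, so the difference was proportionally larger than that of Glo1. Its counts amounted to 1.26% of those of Glo1 in HVCN1 null and to 0.313% in WT hearts. The setting of featureCounts for reads that match several places is not given in the sources used here, so counts of Gm13443 can come from Glo1 RNA and carry no support of their own. Even all of them together would add at most that percentage to Glo1. A short transcript of unknown kind annotated on the other strand, AC165962.3, lies wholly within Glo1 and is not among the counted genes.

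**Figure D2:**
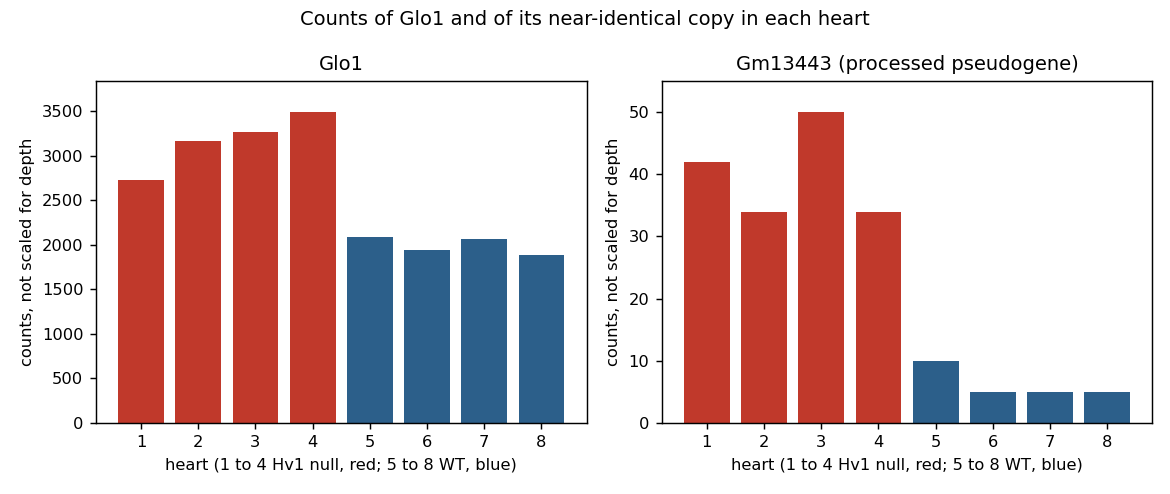
Counts per heart (y axis, linear from 0, not scaled for depth) of Glo1 (left) and of its processed pseudogene Gm13443 (right), with hearts 1 to 4 Hv1 null (red) and 5 to 8 WT (blue). Both are higher in the 4 Hv1 null hearts, at 2727 to 3488 against 1889 to 2087 counts for Glo1 and 34 to 50 against 5 to 10 for Gm13443.

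Hagh (ENSMUSG00000024158, chromosome 17, 24840143 to 24864450, plus strand), the next enzyme of the route, lies 5.72 Mb from Glo1 and did not follow it. It was at 40.5, 40.0, 52.2 and 53.4 CPM in HVCN1 null hearts and at 59.7, 60.5, 40.0 and 55.5 CPM in WT hearts. WT heart 7 was as low as the lowest null hearts, and the groups overlapped. The log2 fold change was -0.22 (standard error 0.15, 95% interval -0.51 to 0.07), with an adjusted p of 0.704 by edgeR's quasi-likelihood test. An increase as large as the log2 fold change of 0.75 seen for Glo1 lies outside that interval.

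Park7 (ENSMUSG00000028964, chromosome 4, 150897133 to 150914437, minus strand) encodes DJ-1, a redox-sensitive protein for which a glutathione-independent glyoxalase activity has been described and disputed. It was at 97.6, 104, 140 and 135 CPM in HVCN1 null hearts and at 138, 130, 99.1 and 132 CPM in WT hearts. The ranges almost coincided. Its log2 fold change was -0.07 (standard error 0.15, 95% interval -0.36 to 0.22, edgeR adjusted p = 0.937). Hagh and Park7 were low in the same hearts, 1, 2 and 7. The log2 ratio of Hagh to Park7 was -1.35 ± 0.06 in HVCN1 null and -1.22 ± 0.09 in WT hearts (SD, n = 4 and 4), a difference of -0.14 that missed the threshold (two-sided exact permutation test, p = 0.0571).

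The aldo-keto reductases showed as little. Akr1b3 (ENSMUSG00000001642, chromosome 6, 34302434 to 34317478, minus strand) encodes aldose reductase, the first enzyme of the polyol pathway, which also reduces methylglyoxal. It ran from 124 to 158 CPM in HVCN1 null hearts and from 113 to 160 CPM in WT hearts, and the log2 fold change was -0.02 (standard error 0.13, 95% interval -0.28 to 0.23, edgeR adjusted p = 0.983). The sign of this value turned with the scaling of library sizes. Akr1a1 (ENSMUSG00000028692, chromosome 4, 116636510 to 116651680, minus strand) encodes aldehyde reductase. It ran from 138 to 176 CPM in HVCN1 null hearts and from 141 to 169 CPM in WT hearts, and the log2 fold change was 0.05 (standard error 0.11, 95% interval -0.16 to 0.26, edgeR adjusted p = 0.942). For all 4 of these enzymes the groups overlapped, and none passed the test. Over all tested genes the groups did not overlap in 7.14%, and 1.14% were called, so most genes would show the same.

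Akr1b3 also has near-identical processed pseudogenes, and these give a contrast to Gm13443. Gm6644 (99.7% identical over its whole length), Gm6736 (99.5%) and Gm12138 (99.1%) summed to 36, 6 and 16 counts in the HVCN1 null group and to 37, 11 and 18 in the WT group. They followed Akr1b3 in that their groups overlapped, and the largest of them, Gm6644, amounted to 0.198% of its counts in HVCN1 null and 0.191% in WT hearts.

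Btbd9 (ENSMUSG00000062202, chromosome 17, 30215524 to 30576488, minus strand) encodes a BTB-domain adaptor of cullin-3 ubiquitin ligases and lies 8447 bases from Glo1. It was at 19.9, 18.0, 22.9 and 19.5 CPM in HVCN1 null hearts and at 14.4, 14.0, 14.0 and 15.3 CPM in WT hearts. As for Glo1, the groups did not overlap and null heart 3 was the highest. The means were 20.1 ± 2.05 and 14.4 ± 0.610 CPM (SD, n = 4 and 4), and the log2 fold change was 0.47 (standard error 0.09). By edgeR's quasi-likelihood test the adjusted p was 0.0475, just inside the threshold of 0.05. A two-sided exact permutation test of the CPM gave an unadjusted p = 0.0286, the smallest that 4 hearts against 4 allow. Groups that do not overlap always give that value, so it adds nothing here. The call was lost with limma's voom (adjusted p = 0.0565) and, of the 8 fits that leave out 1 heart, held in the 1 without null heart 2 (adjusted p from 0.0403 to 0.176). The log2 fold change itself stayed between 0.40 and 0.52 in those fits.

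Dnah8 (ENSMUSG00000033826, chromosome 17, 30624354 to 30877365, plus strand) encodes a heavy chain of axonemal dynein, the motor of cilia and of the sperm flagellum, and is not known for a role in cardiac muscle. It had 136, 68, 93 and 98 counts in HVCN1 null hearts and 25, 28, 29 and 14 counts in WT hearts, or 4.09, 1.83, 3.52 and 2.78 CPM against 0.634, 0.869, 0.760 and 0.469 CPM. The lowest null heart was above the highest WT heart by a clear margin. With means of 3.05 ± 0.977 and 0.683 ± 0.172 CPM (SD, n = 4 and 4), the ratio was 4.47. The log2 fold change was 2.14 (standard error 0.30, edgeR adjusted p = 0.00696). Dnah8 passed the test in all 8 fits that leave out 1 heart, with an adjusted p of at most 0.0354.

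Of the other 14 axonemal dynein heavy chains examined, 5 had enough counts to be tested (Dnah12, Dnah17, Dnah2, Dnah6 and Dnah7b), and none passed edgeR's test (log2 fold changes from -0.67 to 0.48, adjusted p from 0.389 to 0.957). As 1.14% of all tested genes were called, 5 genes without a call say little. Of those not tested, Dnah7c had 1 count in the HVCN1 null and 18 in the WT group. Markers of motile cilia and pancreatic islets summed to 1.08 to 1.79 CPM in HVCN1 null and to 1.60 to 2.08 CPM in WT hearts, with Dnah5, Ins1, Gcg and Iapp at 0 counts in all 8 hearts. Most of that sum was Dnaic1, with 407 counts over all hearts beside 19 for Foxj1. The sum was not higher in the HVCN1 null hearts, where Dnah8 was high, but it rests on 1 gene. Whether ciliated cells had a part was not tested.

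Glp1r (ENSMUSG00000024027, chromosome 17, 30901817 to 30940791, plus strand), the receptor for glucagon-like peptide-1, which in the mouse heart is known mainly from the atria, starts 24451 bases beyond Dnah8. It had 0, 6, 1 and 1 counts in HVCN1 null hearts and 1, 1, 15 and 0 counts in WT hearts. Nearly all reads came from null heart 2 and WT heart 7, the hearts with the highest atrial sum in their group (4869 and 8820 CPM). Null heart 3 and WT heart 5 were also atrium-rich (3861 and 3470 CPM), yet had 1 count each. The ratio of the summed counts, 8 to 17, was 0.498 (exact 95% interval 0.186 to 1.22, which covers counting error only), and a two-sided exact permutation test of the CPM gave p = 0.83. Without WT heart 7 the difference turned, to 0.038 CPM higher in HVCN1 null hearts (exact permutation p = 0.571). The interval ends below the ratios of 1.69 and 4.47 of Glo1 and Dnah8, but it leaves out the spread between hearts, and without WT heart 7 the sums were 8 and 2 counts.

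The differences of the neighbours were not of 1 size. The log2 ratio of Dnah8 to Btbd9 was -2.77 ± 0.42 in HVCN1 null and -4.43 ± 0.44 in WT hearts (SD, n = 4 and 4). That is a difference of 1.66, with no overlap. The log2 ratio of Btbd9 to Zfand3, the nearest tested gene beyond it, differed by 0.52, also without overlap. It was -2.67 ± 0.05 in WT and -2.15 ± 0.17 in HVCN1 null hearts. The CPM ranges of the single genes already forced both ratios apart, so no test is given for them. Dnah8 thus differed more than Btbd9, and Btbd9 more than the gene next to it. As Zfand3 had a log2 fold change of -0.05, its ratio with Btbd9 largely restates the difference of Btbd9 and is no separate evidence.

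Within 1 Mb on either side of Glo1, 28 genes were listed and 17 tested. Apart from Glo1, which had been picked on this contrast, DEGs (genes with an adjusted p under 0.05 by edgeR's quasi-likelihood test) were 2 of 16 (12.5%), against 169 of 14796 (1.14%) over all tested genes. They were Btbd9 and Dnah8, both higher in HVCN1 null hearts, a direction called in 0.743% of all tested genes. The remaining 14 tested genes held no DEG by this test, with log2 fold changes from -0.27 to 1.08 and a median of 0.09. At their edge, Zfand3, a zinc finger gene 374 kb from Glo1, was at 88.7 ± 5.48 CPM in HVCN1 null and 91.5 ± 3.31 CPM in WT hearts (log2 fold change -0.05, edgeR adjusted p = 0.911). On the side of Dnah8, Abcg1, a cholesterol exporter 431 kb away, was at 5.24 ± 0.745 and 5.33 ± 0.837 CPM (log2 fold change -0.03, edgeR adjusted p = 0.980).

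Farther out none of the tested neighbours passed the same test. On the side of Btbd9, Mdga1, Ccdc167 and Cmtr1 had log2 fold changes of 0.45, -0.05 and 0.03, and on the side of Dnah8, Slc37a1, Pde9a, Wdr4 and Ndufv3 had 0.12, 0.18, 0.11 and 0.06. Mdga1, a cell adhesion gene 615 kb from Glo1, was at 17.3 to 25.4 CPM in HVCN1 null and 15.7 to 17.2 CPM in WT hearts, without overlap, at an adjusted p of 0.139 by edgeR. Null heart 2 was the lowest of its group, and with that heart left out the value was 0.57 (edgeR adjusted p = 0.0168), and it also passed with DESeq2 (0.47, adjusted p = 0.0298). Pknox1 also did not overlap (log2 fold change 0.17, edgeR adjusted p = 0.558), and Cbs, which makes cystathionine, had the largest value, 1.08, with a standard error of 0.51 (edgeR adjusted p = 0.481). These last 2 were named after their values were seen.

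**Figure D3:**
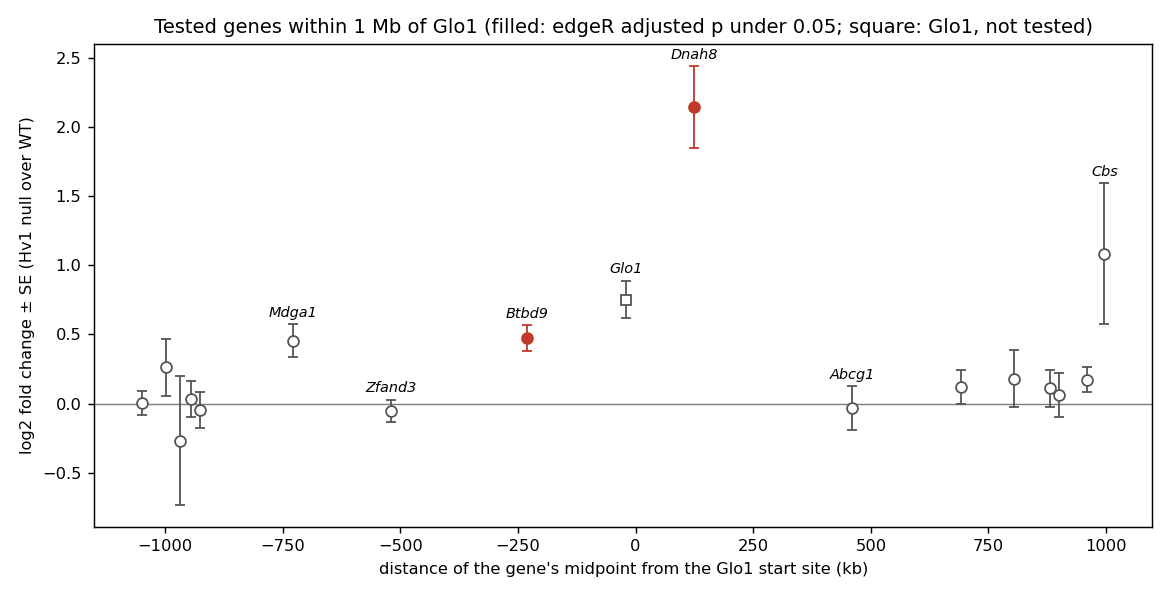
Log2 fold change of Hv1 null over WT ± standard error (y axis) of the 17 tested genes within 1 Mb of Glo1 against the distance of each gene's midpoint from the Glo1 start site in kb (x axis), filled where edgeR's adjusted p is under 0.05, with Glo1 as an open square since it is given no test. The 2 filled points, Btbd9 at 0.47 and Dnah8 at 2.14, lie on either side of Glo1 at 0.75, and beyond them Zfand3 and Abcg1 lie at -0.05 and -0.03.

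A wider window brought no further DEG up to 2 Mb, where 2 of 48 tested genes other than Glo1 were called (4.17%). Within 5 Mb there were 11 DEGs among the other 233 (4.72%), of which 9 were higher without HVCN1 and 2 were lower. Over all tested genes 1.14% were called, 0.743% as higher and 0.399% as lower. The other 9 lay more than 3 Mb from Glo1. Of these, 7 lay in the major histocompatibility complex, the set of immune genes on this chromosome. H2-Ea-ps, the class II gene that C57BL/6 mice do not transcribe, was at 7.64 to 15.1 CPM in HVCN1 null hearts and had 0 counts in every WT heart. H2-Q1, H2-Q2 and H2-Q10, nonclassical class I genes, had 390, 202 and 326 counts in HVCN1 null hearts and 5, 8 and 79 in WT hearts, and C4a, a complement gene, had 151 and 36. The class I genes and C4a resemble other genes of their families closely, so their counts are uncertain. H2-Ea-ps, H2-Q1 and H2-Q2 passed the filter on low counts only through the HVCN1 null hearts. They could therefore be called only as higher, which adds to the share and to the count of higher genes.

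The heat shock genes of the same region, Hspa1b and Hspa1a, which are near-identical to each other, had log2 fold changes of 3.02 and 2.67 (edgeR adjusted p = 0.0104 and 0.0202). Their levels reached 40.5 and 38.7 CPM in HVCN1 null hearts and 2.89 and 3.28 CPM in WT hearts. Lower in HVCN1 null hearts were Angptl4, an inhibitor of lipoprotein lipase (log2 fold change -2.89, standard error 0.49, edgeR adjusted p = 0.0202), and Bak1, a mitochondrial mediator of apoptosis (-0.43, standard error 0.09, edgeR adjusted p = 0.0465). Hagh, on the same chromosome outside this window, was described above.

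Around the glyoxalases, 46 genes in 7 lists covered the sources, removal and consequences of methylglyoxal, and 42 of them were tested. Apart from Glo1, 0 of 41 passed edgeR's quasi-likelihood test, beside 1.14% of all 14796 tested genes. At so low a share, 41 genes without a call say little about the route. An unadjusted p under 0.05 by that test was found for 3 of them, beside 1625 of all tested genes. Of the 41, 14 were higher and 27 lower in HVCN1 null hearts by point value, with a median log2 fold change of -0.06 beside -0.01 over all tested genes, 52.7% of which were lower. The nearest to a call was Gclm, the modifier subunit of glutamate-cysteine ligase, the first step of glutathione synthesis. It was at 18.0 ± 1.60 CPM in HVCN1 null and 23.4 ± 2.12 CPM in WT hearts, without overlap (log2 fold change -0.39, standard error 0.09, edgeR adjusted p = 0.105). DESeq2 called Gclm and Aldh9a1, an aldehyde dehydrogenase of carnitine synthesis (log2 fold change -0.32, edgeR adjusted p = 0.134), and edgeR's likelihood ratio test called Gclm. Aldh9a1 was named after its values were seen.

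By list, the glyoxalases and glyoxalase-like genes besides Glo1 had 1 higher and 3 lower values, from -0.22 for Hagh to 0.20 for Haghl, its paralogue. Of the 13 tested reductases and oxidases of methylglyoxal, 4 were higher and 9 lower, and the largest values, -0.60 for the aldehyde dehydrogenase Aldh3a1 and -0.36 for Akr1b8, came from low counts with standard errors of 0.64 and 0.31. Glycolytic and other sources of methylglyoxal were split 3 and 3, with triose phosphate isomerase (Tpi1) at 0.16 and Gapdh at -0.18. Ldhd, which oxidizes the D-lactate that glyoxalase 2 releases, was at -0.22 (standard error 0.11, edgeR adjusted p = 0.535).

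The glutathione genes were split 4 and 4, with Ggct, a gamma-glutamylcyclotransferase, at -0.21 after Gclm. Genes that repair or bind glycated proteins had 2 higher and 5 lower values, with Ager, the receptor for advanced glycation end products, at 0.25 (standard error 0.46) and Lgals3, galectin-3, at -0.23 (standard error 0.62). In the polyol pathway all 3 values were below 0, with Sord, sorbitol dehydrogenase, at -0.27 and Khk, ketohexokinase, at -0.11 (edgeR adjusted p = 0.475 and 0.870). Glo1 left aside, the lists held no DEG by this test.

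**Figure D4:**
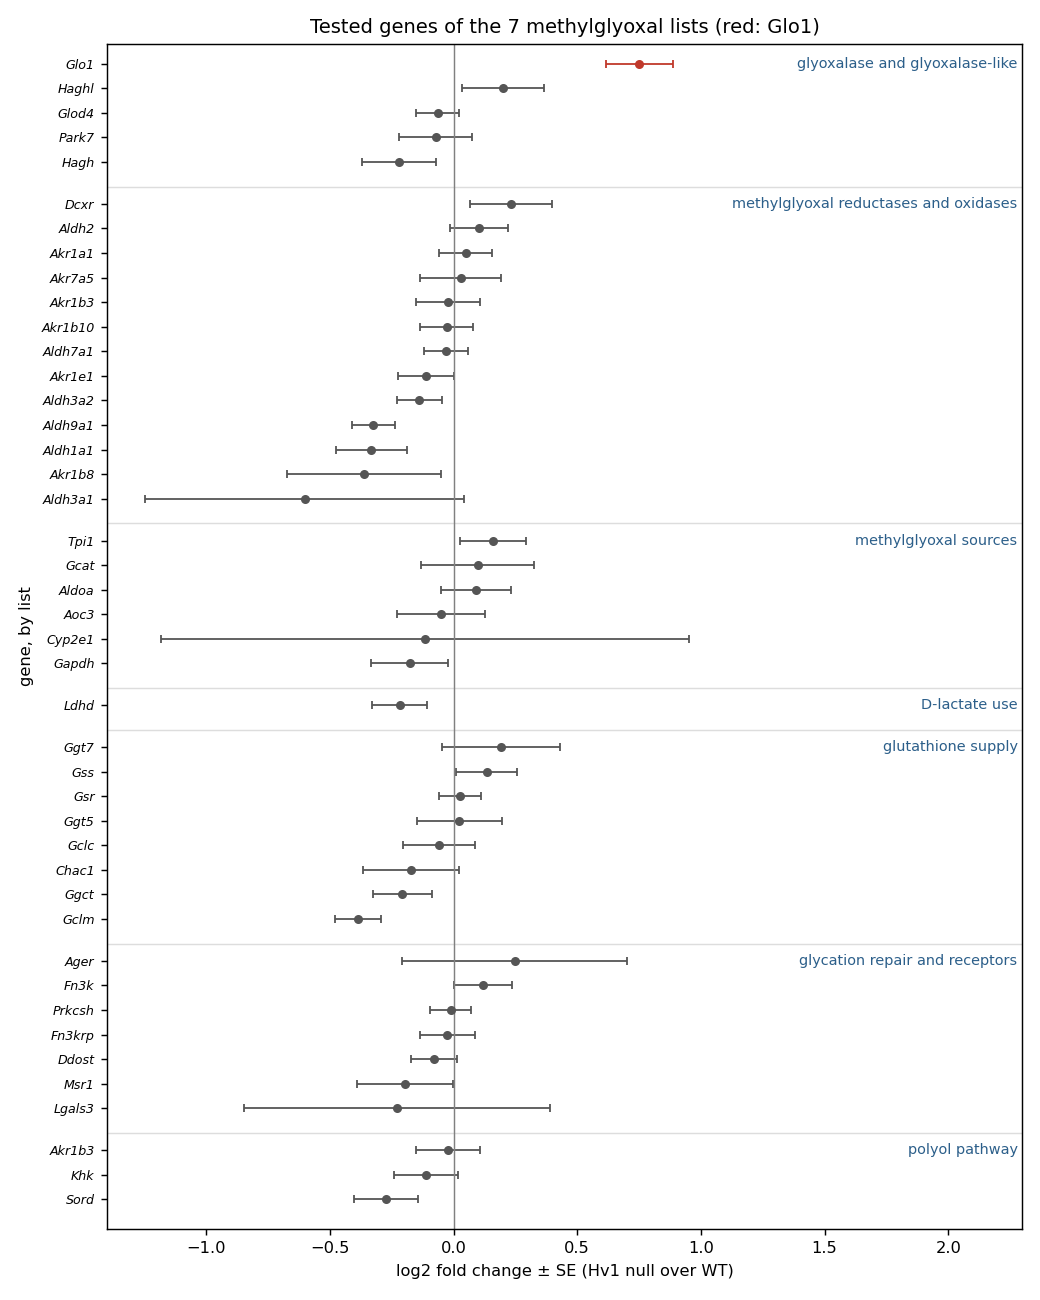
Log2 fold change of Hv1 null over WT ± standard error (x axis) of the 42 tested genes of 7 lists around methylglyoxal (y axis, grouped by list, Akr1b3 shown in both its lists), with Glo1 in red. Glo1 at 0.75 lies apart from the other genes, whose values run from -0.60 to 0.25.

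Levels of different genes were compared per length, as CPM per kilobase of exonic sequence (RPKM) in the 4 WT hearts. Akr1a1 was the highest at 55.5 ± 4.35 RPKM, followed by Park7 at 50.3 ± 6.99 RPKM, whose range overlapped that of Akr1a1. Hagh came next at 28.3 ± 4.99 RPKM, then Akr1b3 at 16.7 ± 2.44 and Glo1 at 4.76 ± 0.411 RPKM (SD, n = 4). Glo1 thus had the lowest mean of the 5 enzymes, and this held with other measures of length. The neighbours were lower, with Btbd9 at 0.791 ± 0.033, Dnah8 at 0.0255 ± 0.0064 and Glp1r at 0.0193 ± 0.032 RPKM, and the ranges of the last pair overlapped. The length used moved these values, since Glo1 has 12101 exonic bases over all its transcripts while its coding transcripts have a median of 1013 bases. With the median coding transcript its level was 56.9 RPKM and that of Hagh 67.1 RPKM, and their ranges overlapped. The top of the order turned as well, with Park7 first by the longest transcript (133 RPKM, Akr1a1 68.5) and by the median coding transcript, where Park7 was at 156 RPKM and Akr1b3 and Akr1a1 were both at 142 RPKM.

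Over the 8 hearts, the log2 CPM of Glo1 went most closely with those of Gm12892 (Pearson's r = 0.972), Tubb4b (0.971), Btbd9 (0.963), Snn (0.962) and Gm10499 (0.959). These values describe 8 points that share the genotype groups, and genes that differ between the groups the way Glo1 does rank high for that reason. Btbd9 had rank 3 of all the tested genes and Dnah8 rank 142, with r = 0.859. The enzymes were far down, with r = 0.403 for Akr1a1, 0.261 for Akr1b3, 0.163 for Park7 and -0.146 for Hagh. Of the 5 genes named first, Gm12892 and Gm10499 are pseudogenes with 1.43 ± 1.20 and 6.56 ± 4.26 CPM in HVCN1 null against 0.0541 ± 0.0532 and 0.417 ± 0.0429 CPM in WT hearts, while Tubb4b, a beta-tubulin, differed by a log2 fold change of 0.14.

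Atrial and other cell type markers were set beside the members. Within the atrium-rich hearts (2 against 2), Btbd9 was at 18.0 to 22.9 CPM in HVCN1 null and 14.0 to 14.4 CPM in WT hearts, and Dnah8 at 1.83 to 3.52 and 0.634 to 0.760 CPM. Within the atrium-poor hearts, Btbd9 was at 19.5 to 19.9 and 14.0 to 15.3 CPM, and Dnah8 at 2.78 to 4.09 and 0.469 to 0.869 CPM. For both genes the groups did not overlap over all 8 hearts, so they had to stay apart in each set as well. With 2 hearts a group neither gene passed the test. All 8 macrophage, all 8 erythroid, all 6 tested adipocyte and all 7 tested atrial markers had negative log2 fold changes and none was a DEG. So had 6 of 8 cardiomyocyte and 3 of 4 tested skeletal muscle markers, again without a DEG. Over all tested genes 52.7% were lower and 1.14% were called. Their sums overlapped between the groups, at 210 to 272 CPM in HVCN1 null and 235 to 333 CPM in WT hearts for macrophage markers. Adipocyte markers summed to 345 to 451 and 432 to 575 CPM, and erythroid markers to 1304 to 8454 and 3049 to 15312 CPM. Most of the adipocyte sum was Fabp4, with 113337 counts over all hearts beside 5752 for Cidea and 472 for Adipoq. That sum was highest in WT heart 6, where Adipoq had 1 count, so it is no measure of adipocytes. The part of these cell types in the values of the 8 genes was not tested. The number of copies of the Glo1 segment was not measured in these mice, and its part was not tested either.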

How the data were processed

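RNA-seq was done on 8 mouse hearts, 4 Hv1 null and 4 WT. The authors aligned the reads with STAR to mm10 (GRCm38), per the labels, while the paper's text names a human genome, and counted them per gene with featureCounts, and the deposited values are these raw counts without normalization. The strand and multi-mapping settings are not given in the sources used here. Of the listed genes, 38872 were matched by identifier to GENCODE M21, from which symbols, exons and positions were taken. With edgeR 4.0.16 in R 4.3.3, counts were scaled by TMM, filtered by filterByExpr and compared by the quasi-likelihood test over 14796 genes, where DEGs had a p under 0.05 after the Benjamini-Hochberg adjustment, and log2 fold changes are Hv1 null over WT. Exact permutation tests used the 70 assignments of 8 hearts. Copies were sought with BLAST+ 2.17.0 (at least 95% identity over at least 80% of the copy). Tables and plots were made with Python 3.11.15, pandas 2.3.3 and matplotlib 3.10.9.

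The members and lists were chosen with earlier results of these data known. Named besides the members were, of each list, the DEGs and the 2 genes with the largest absolute log2 fold change, of the genes within 1 Mb of Glo1 the DEGs and the 5 nearest tested genes on each side, of those within 5 Mb up to 10 DEGs, and the 5 genes most correlated with Glo1. Alternatives were RLE scaling, unscaled library sizes, no filter, a filter of over 1 CPM in 4 or more hearts, DESeq2 1.42.0, voom of limma 3.58.1, edgeR's likelihood ratio test, an atrial score as covariate and each heart left out. The split by a summed atrial level of 1000 CPM and the median coding length were chosen after seeing the data. On simulated counts of 14660 genes with 197 changed, the quasi-likelihood test made 131 calls, 7.63% of them false, and recovered 100%, 67.7% and 16.7% of changes of 2, 1 and 0.5 on the log2 scale. The intervals of log2 fold changes come from the fitted standard error and include the spread between hearts, and that of Glp1r covers counting error only. The sequence around the other differences between Glo1 and its copy is not reported here.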

Additional observations from a re-analysis of the deposited data

Results flagged for a closer look

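Glp1r in WT heart 7, at 0.393 CPM (15 counts), lay far from the other 3 WT hearts, which were at 0 to 0.0310 CPM. Its gap to the nearest of them was 0.921 of the group's range, above Dixon's 95% critical value for 4 samples. This was 1 value in 16 groups of 4 hearts examined (8 genes, 2 groups), and chance alone marks about 1 group in 20. WT heart 7 also had the highest sum of atrial markers, 8820 CPM, but WT heart 5, with an atrial sum of 3470 CPM, had 1 Glp1r count.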

How the results depend on the processing

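No paired analysis was possible because no replicate number occurs in both groups. Dnah8 passed the test in 16 of 18 alternatives, Btbd9 in 8, and Hagh, Park7, Akr1b3 and Akr1a1 in 0. The number of DEGs over all genes, 169, was 466 with DESeq2 and 376 with edgeR's likelihood ratio test, and from 71 to 152 with 1 heart left out, lowest without WT heart 6. Within 1 Mb of Glo1, itself included though picked on this contrast, it was 1 to 4 with 1 heart left out and 12 for the 5 Mb window. In the methylglyoxal lists the number also includes Glo1, which is given no test, and without Glo1 it was 0 in the main fit. With Glo1 included, the number was 3 with DESeq2, 2 with the likelihood ratio test and 0 to 1 with 1 heart left out. In the fits with 1 heart left out only Glo1 was ever counted, so that range is no test of the lists. Among the 4 atrium-poor hearts (2 against 2) there were 71 DEGs over all genes and among the 4 atrium-rich hearts 24, with 0 near Glo1 and 0 in the lists in both sets. In these sets the log2 fold changes were 0.56 and 0.95 for Glo1, 0.44 and 0.51 for Btbd9, and 2.35 and 1.91 for Dnah8. Neither Btbd9 nor Dnah8 passed the test there, and Glo1 is given none.

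With 1 heart left out, Glo1 ranged from 0.61 to 0.83 and Btbd9 from 0.40 to 0.52, and voom gave 0.46 for Btbd9. Signs turned for values near 0. Park7 ranged from -0.16 to 0.012 with 1 heart left out and was 0.030 in the atrium-rich set. Akr1b3 was 0.023 with unscaled libraries, 0.038 with the atrial score, 0.11 in the atrium-rich set and from -0.11 to 0.055 with 1 heart left out. Akr1a1 ranged from -0.0071 to 0.11, and the Glp1r difference from -0.0929 to 0.038 CPM, the latter without WT heart 7. The cause of these changes was not tested. With the longest transcript as length, the WT levels were 5.84 RPKM for Glo1, 45.3 for Hagh, 133 for Park7, 27.9 for Akr1b3, 68.5 for Akr1a1, 2.04 for Btbd9 and 0.0409 for Dnah8, and with the median coding transcript 56.9, 67.1, 156, 142, 142, 8.95 and 0.0468 RPKM. Depth limits Glp1r, with 25 counts in all.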
